A study of Caenorhabditis elegans with 2 samples.

Results

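The peaks described here are those of an SDC-2 chromatin immunoprecipitation (ChIP-seq) whose summit, the base that the peak caller marked as the top, fell inside a coding exon of a protein-coding gene on 1 of the 5 autosomes of C. elegans. They were taken from the list called on both replicates pooled, which held 26640 peaks, 20925 of them on autosomes. Of these, 6198 had a summit in coding sequence, and they are called coding peaks below. All 6198 were 450 bp wide, and a median of 75.6% of the interval was coding sequence (quartiles 56.5 to 90.2%). The other 14727 autosomal peaks are called noncoding.

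The worms were hermaphrodites of strain OP92, a transgenic line that expresses SDC-2 with a C-terminal GFP-FLAG tag, and the chromatin was precipitated with an antibody against GFP. Late embryos were collected 3.25 hours after synchronization by egg bleaching and their chromatin was sheared by sonication. There was 1 group of 2 biological replicates, and no second genotype, stage or treatment is analysed here, so what could be compared was one class of sequence with another. Both replicates were called against the same control alignment, and ChIP of an untagged strain was not analysed here, so SDC-2 binding and signal that an untagged strain would also give cannot be told apart. The replicate lists held 5910 coding autosomal peaks of 19760 (replicate 1) and 5659 of 19254 (replicate 2). The lists give no read counts, so depth is unknown, and intervals are exact 95% intervals that cover the counting of peaks only.

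SDC-2 is the protein that starts dosage compensation in C. elegans: in hermaphrodites it brings a condensin-like complex to both X chromosomes, where transcription is lowered, and it represses the autosomal male-promoting gene her-1. Its recruitment sites are known from X, in stretches that share short sequence motifs. The hosts described most fully below are the cuticle collagens, a large worm gene family whose products form the collagenous exoskeleton. Collagen chains repeat a triplet of glycine and any pair of residues, often proline, and their genes therefore repeat a GC-rich stretch of glycine and proline codons.

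The sequence under the strongest coding peaks shows this composition where the host is a collagen. The summit with 50 bases to either side is printed on the coding strand of the host gene, from the RefSeq genome (WBcel235, the same assembly as ce11), for 4 collagen hosts and 4 other hosts among the 15 strongest coding peaks. Capitals mark glycine codons in the reading frame of the host. The windows lie at III:10989841-10989941 (dhc-4, plus strand), II:5032897-5032997 (F33G12.3, minus), IV:4656177-4656277 (col-111, minus), II:14406762-14406862 (nurf-1, plus), III:13019627-13019727 (col-98, plus), III:12993041-12993141 (col-97, minus) and II:6710792-6710892 (dpy-10, minus). A further window, at II:3964589-3964689 (sea-2, plus), has 1 glycine codon and is rich in GC without the collagen repeat.
dhc-4: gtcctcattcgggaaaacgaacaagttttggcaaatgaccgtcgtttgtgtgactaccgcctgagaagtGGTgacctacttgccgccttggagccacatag
F33G12.3: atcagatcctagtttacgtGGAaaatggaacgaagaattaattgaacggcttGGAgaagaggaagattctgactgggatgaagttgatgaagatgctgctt
nurf-1: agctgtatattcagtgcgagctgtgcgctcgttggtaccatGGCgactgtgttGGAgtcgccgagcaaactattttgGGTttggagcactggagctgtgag
sea-2: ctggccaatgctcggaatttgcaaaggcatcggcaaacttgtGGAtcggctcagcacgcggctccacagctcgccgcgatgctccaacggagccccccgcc
col-111: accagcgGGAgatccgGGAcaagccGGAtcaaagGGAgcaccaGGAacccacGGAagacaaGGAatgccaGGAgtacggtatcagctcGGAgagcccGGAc
col-98: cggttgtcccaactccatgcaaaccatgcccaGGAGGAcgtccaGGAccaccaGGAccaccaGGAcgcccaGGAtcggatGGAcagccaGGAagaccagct
col-97: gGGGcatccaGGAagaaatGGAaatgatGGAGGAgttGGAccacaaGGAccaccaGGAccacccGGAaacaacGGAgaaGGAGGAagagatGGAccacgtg
dpy-10: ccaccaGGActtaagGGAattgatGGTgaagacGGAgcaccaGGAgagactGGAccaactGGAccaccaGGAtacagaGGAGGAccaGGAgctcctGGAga
The 4 collagen windows hold 10, 8, 13 and 12 glycine codons of 33 whole codons each, in the order printed. The windows of dhc-4, F33G12.3 and nurf-1 hold 1, 2 and 3. GC content was 61.4, 62.4, 55.4 and 56.4% in the collagen windows in that order, and 51.5% in the window of dhc-4, 40.6% in that of F33G12.3, 53.5% in that of nurf-1 and 64.4% in that of sea-2, so the groups overlap.

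Coding sequence held more peaks than its length alone gives, but almost none of the strong ones. Coding exons made up 25.6% of autosomal bases and held 29.6% of autosomal peaks (interval 29.0 to 30.2%), 1.16 times their share of the bases (exact two-sided binomial test, p = 1.07e-38). Untranslated exon sequence held 5.84% of the peaks on 4.89% of the bases, a ratio of 1.19 (exact binomial p = 7.35e-10). The excess was thus not particular to coding exons. Introns held 29.2% of the peaks on 33.7% of the bases, a ratio of 0.868 (exact binomial p = 7.21e-43). Intergenic sequence held 35.3% on 35.8%, which did not pass (exact binomial p = 0.132). On X coding sequence held 1128 of 5714 peaks, 19.7% on 19.97% of the bases (exact binomial p = 0.679). Per Mb of coding sequence, however, X had 318.8 peaks and the autosomes 292.9. Intergenic sequence had 343.2 per Mb on X and 249.9 on autosomes, and introns 290.1 and 220.1. Among autosomal peaks kept by the authors at their irreproducible discovery rate (IDR) cutoff, coding exons held less than their share of the bases instead. There 46 of 780 peaks were coding, 5.90% (exact binomial p = 3.04e-47).

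That reversal followed the signal, the value that the authors' peak caller gave each peak. None of the 50 strongest autosomal peaks was coding, which allows a share of up to 7.11% by the exact interval. There were 2 among ranks 51 to 200 and 9 among ranks 201 to 500 (3.0%). At ranks 501 to 1000 the share was 13.8%, at ranks 1001 to 2000 it was 24.2%, and in all further ranks it lay between 30.6 and 31.8%. Excess of coding peaks over the 25.6% of bases was thus found only below the 2000 strongest.

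**Figure D1:**
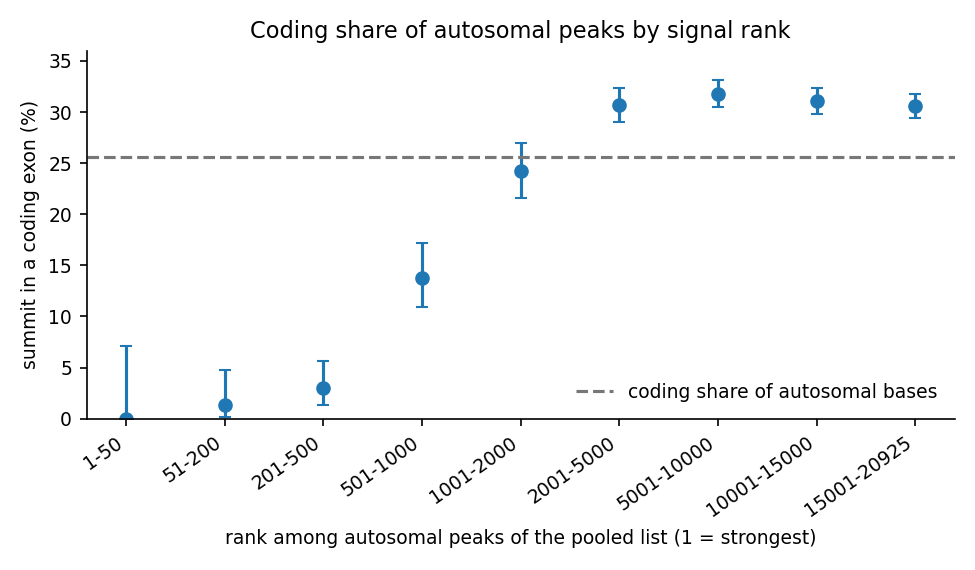
Share of autosomal peaks with a summit in a coding exon (y axis, percent) by rank of signal in the pooled list (x axis, strongest on the left); bars are exact 95% intervals and the dashed line is the 25.6% of autosomal bases that are coding. The share lies at 0% to 3.0% over the first 500 peaks and between 30.6 and 31.8% from rank 2001 on.

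The signal of coding peaks had a median of 31.6 (quartiles 26.4 to 40.9), with a minimum of 22.5, the floor of the list, and a maximum of 152.8. Noncoding autosomal peaks had a median of 32.4 (quartiles 26.6 to 44.1) and a maximum of 1646, so the classes differed mainly in their upper end. A signal over 80 was reached by 55 coding peaks (0.887%) and by 789 noncoding peaks (5.36%). Above 100 there were 8 coding and 438 noncoding peaks. Coding peaks on X had about the same median, 31.4, although their maximum was 16770. Among the autosomes the median of coding peaks lay between 31.1 on V and 32.1 on IV.

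IDR peaks were correspondingly rare in coding exons. They made up 46 of the 6198 coding peaks (0.742%, interval 0.544 to 0.989%) and 734 of the 14727 noncoding peaks (4.98%, interval 4.64 to 5.35%), beside 3.73% of all autosomal peaks (two-sided Fisher exact p = 9.66e-64). The 46 lay in 46 different genes, 14 of them on II, 11 on III, 8 on IV, 7 on I and 6 on V. The median of their signal was 90.5, the lowest value 83.6 and the highest 152.8. No IDR peak had a signal under 82.4, and the strongest coding peak outside the IDR list had 82.25. IDR membership of coding peaks thus followed a cut on signal. The difference in IDR share therefore restates the upper end of the signal and is no separate result.

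The strongest coding peak lay in dhc-4, a dynein heavy chain gene, at III:10989666-10990115. Its signal was 152.8 in the pooled list, 49.2 in replicate 1 and 56.2 in replicate 2, each list having its own scale. It was the peak of rank 367 among all peaks in the pooled list, 864 in replicate 1 and 829 in replicate 2. The summit lay in coding segment 32 of 35, at 90.5% of the coding sequence.

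The next, in F33G12.3 at II:5032722-5033171, had a signal of 137.0, with 81.0 in replicate 1 (rank 322) and 54.9 in replicate 2 (rank 863). The replicates thus placed it quite differently, and its GC content within 100 bp, 36.8%, was the lowest of the 15 strongest. The peak in nurf-1, which encodes a subunit of the NURF chromatin remodelling complex, followed with 114.6 after the collagen col-111 (115.7). It lay at II:14406587-14407036, in coding segment 22 of 25, with 59.8 in replicate 1 and 56.75 in replicate 2.

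Other hosts among the 15 strongest had a range of functions. The mitochondrial ribosomal protein gene mrpl-15 had a peak of 105.1 at I:1440714-1441163, with 59.9 in replicate 1 and 42.6 in replicate 2. In mdt-26, a Mediator subunit gene, the peak of 103.8 had its summit at 0.862% of the coding sequence, 27 bp from an annotated 5′ end, so it is as much a gene-start peak as a coding one. The histone gene his-32 had a peak of 100.7 at IV:8334176-8334625. The 31 bases at this summit occur 2 times in the genome, and histone genes have near-identical copies, so the assignment to his-32 is uncertain.

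The peak in sea-2, whose product is a zinc-finger protein counted among the autosomal signals of sex determination, had a signal of 96.5 at II:3964414-3964863, with 41.9 in replicate 1 and 58.8 in replicate 2. It lay in coding segment 6 of 14, 299 bp from the nearest annotated 5′ end of a protein-coding transcript. The splicing-related gene rsr-1 (96.8), picd-1 (98.1), ril-2 (95.7) and F47G4.4 (95.6) complete the group with the collagens col-98, col-97 and dpy-10. In all 15 the peak was found in both replicate lists, with replicate signals of 39.65 to 81.0 in replicate 1 and 42.3 to 67.7 in replicate 2. Their ranks ran from 322 to 1515 in replicate 1 and from 542 to 1618 in replicate 2.

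Further IDR peaks lay in coding exons of genes with well-known roles. The BMP-like ligand gene dbl-1 had a peak of 87.5 at 1.32% of its coding sequence, with 19.9 in replicate 1 and 60.9 in replicate 2. The unfolded-protein-response factor gene xbp-1 had one of 83.6 at 1.1% of the coding sequence, 171 bp from the nearest 5′ end, with 37.0 and 44.2 in replicates 1 and 2. In jmjd-2, a histone demethylase gene, the summit of a peak of 90.3 lay 3322 bp from the nearest protein-coding 5′ end, in a window of 62.2% GC. The phosphoenolpyruvate carboxykinase gene pck-1 had a peak of 84.02, and the homeobox gene ceh-51, which acts in embryonic mesoderm, had one of 83.8. Of all 46, 29 had a summit no more than 1000 bp away from the 5′ end of a protein-coding transcript, 63.0% (interval 47.5 to 76.8%), beside 49.7% of all coding peaks. No summit lay within 100 bp in replicate 1 for idpa-1 (pooled 90.1) or in replicate 2 for cut-2, a cuticlin gene (pooled 87.8); the other 44 were found in both.

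Recovery in the replicate lists was counted as a replicate summit within 100 bp. Among coding peaks 3433 were found in replicate 1 (55.4%) and 3559 in replicate 2 (57.4%). In both replicates 1730 were found, 27.9% (interval 26.8 to 29.05%), beside 30.1% of all autosomal peaks. A further 1703 were found in replicate 1 only, 1829 in replicate 2 only and 936 (15.1%) in neither. The pooled list was called on the same reads, so a share well above that of all coding bases is partly fixed: of all autosomal coding bases, 5.49% lay within 100 bp of a replicate 1 summit, 5.33% of a replicate 2 summit and 1.49% of both.

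Noncoding peaks were found in both more often, 4558 of 14727 (30.95%), a difference, coding minus noncoding, of -3.04 percentage points (two-sided Fisher exact p = 1.21e-05). This difference was not found at equal signal. Within deciles of autosomal peaks by signal the coding share was 0.760 points higher instead, and did not pass (Cochran-Mantel-Haenszel chi-square p = 0.151). In the strongest decile 87.4% of coding and 88.3% of noncoding peaks were found in both. In decile 5 the shares were 27.2 and 22.2%, and in the weakest decile 0.665 and 0.335%. Among the 1730 coding peaks found in both, the signals of the replicates were ordered only loosely alike, with a Spearman correlation of 0.285, against 0.548 among the 4558 noncoding ones, which span a far wider range of signal.

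**Figure D2:**
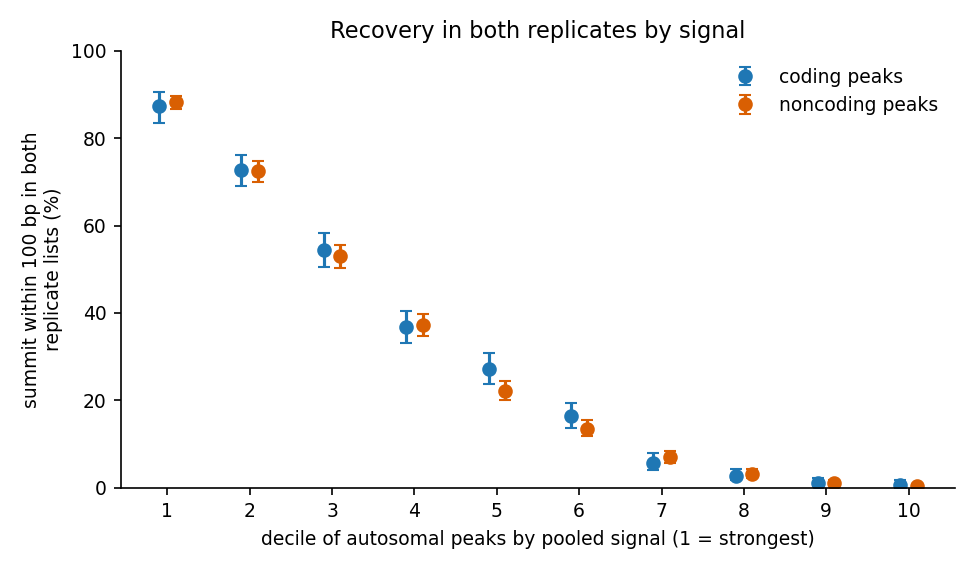
Share of autosomal peaks with a summit within 100 bp in both replicate lists (y axis, percent) by decile of pooled signal (x axis, strongest on the left), for coding and noncoding peaks, with exact 95% intervals. Both classes fall together, from 87.4 and 88.3% in the strongest decile to under 1% in the weakest.

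The 6198 peaks were spread over many genes. Of 17242 autosomal protein-coding genes, 4190 had a coding peak (24.3%), and 1449 had one that was found in both replicates. Most of the 4190 hosts had 1 peak (2986 genes), while 803 had 2, 235 had 3, 82 had 4 and 84 had 5 or more. Hosts were longer than other genes, with a median coding length of 1293 against 936 bases. The share of genes with a peak rose from 11.6% among those of up to 600 coding bases to 78.8% among those over 6000, but peaks per Mb of coding sequence stayed between 230.4 and 342.6 across 8 classes of length. Only 5 summits lay in coding sequence of more than 1 gene.

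The hosts with the most coding peaks were therefore mainly giant genes of muscle and epidermal attachment. The spectraplakin gene vab-10, with 23447 coding bases, had 22 coding peaks in the pooled list, 17 in replicate 1 and 24 in replicate 2, and 5 of the 22 were found in both. The ankyrin gene unc-44 had 14 (1 found in both), and the myotactin gene let-805 and the kettin gene ketn-1 had 13 each, of which 6 and 3 were found in both. The talin gene tln-1, the perlecan gene unc-52 and the obscurin gene unc-89 had 11 each. Per kb of coding sequence this was 0.451 in unc-89 and 0.938 in vab-10, but 1.39 in tln-1.

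The histone methyltransferase gene set-16 had the shortest coding sequence of these 10, 7425 bases, and had 13 coding peaks, 1.75 per kb. Of these, 5 were found in both replicates, and the replicate lists held 10 and 9. The cadherin gene cdh-12 and the protease-inhibitor gene mlt-11, which acts in moulting, had 10 each. As a list, 25 of 27 giant muscle and adhesion genes had a coding peak (92.6%, beside 24.3% of all genes). Their density was 1.35 times that of all autosomal coding sequence in the pooled list, 1.24 in replicate 1 and 1.28 in replicate 2.

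Among hosts with at least 3 coding peaks the highest density was 4.22 per kb in the C-type lectin gene clec-103, with 3 peaks on 711 coding bases. None of those 3 was found in both replicates. R12C12.6 followed with 3.83 per kb, and 2 of its 3 peaks were found in both, one of them an IDR peak of 89.98 with its summit 5 bp from a 5′ end. The engulfment adaptor gene ced-2 had 3.58 per kb, the collagen gene col-36 had 3.26, the histone deacetylase gene hda-10 had 3.22 and the homeobox gene hmbx-1 had 3.14. With 3 to 5 peaks each, these densities rest on very few counts.

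Cuticle collagens stood out from the 28 gene families compared. A coding peak was found in 119 of the 146 autosomal collagen genes (81.5%, interval 74.25 to 87.4%), beside 24.3% of all genes. The count was 118 in replicate 1 and 120 in replicate 2. Collagens held 188 coding peaks, 3.03% of the total on 0.679% of the coding sequence. Their 1308 peaks per Mb of coding sequence were 4.46 times the density over all genes, 4.31 times in replicate 1 and 4.42 times in replicate 2. Recovery was higher too, with 103 of the 188 found in both replicates (54.8%) against 27.9% of all coding peaks. Recovery of coding peaks fell with signal, however, from 87.4% in the strongest decile to 72.7% in decile 2, 54.4% in decile 3 and 27.2% in decile 5. Collagen peaks had a median signal of 46.6, at the border of deciles 2 and 3, against 31.6 over all coding peaks. Recovery of collagen peaks at equal signal was not tested.

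Collagen peaks were also among the strongest. Their median signal was 46.6 (quartiles 35.1 to 59.5) against 31.6 over all coding peaks, and they made up 6 of the 20, 12 of the 50 and 23 of the 100 strongest coding peaks. The peak in col-111 at IV:4656002-4656451 had a signal of 115.7, with 46.2 in replicate 1 and 67.7 in replicate 2. The peak in col-98 (III:13019452-13019901) had 100.9, with 41.8 and 58.5 in replicates 1 and 2, and that in col-97 (III:12992866-12993315) had 96.4, with 42.1 and 53.4. The gene dpy-10, in which mutants are short and stout, had 95.7 at II:6710617-6711066, with 51.6 and 42.3. All 4 were found in both replicates.

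A further 6 collagens had an IDR peak in their coding exons, which makes 10 of the 46. These were col-91 (94.6), col-108 (93.9), col-34 (91.45), sqt-3 (90.7), col-95 (87.2) and col-52 (84.98), all found in both replicates. Collagen summits lay in the middle and later part of the gene, 8 in quintile 1 of the coding sequence, 31, 65 and 64 in the next ones, and 20 in quintile 5. Codons were read in a part of the windows and coding sequences. In 162 windows around these summits 27.8% of whole codons were glycine, against 7.10% in 4319 windows of other coding peaks. Glycine made up 20.2% in 123 collagen coding sequences and 5.38% in 14364 coding sequences of all genes. Proline made up 20.5% of codons in the same collagen windows, 15.3% in those collagen coding sequences and 4.86% in those of all genes. The hexamer CCAGGA, read on the coding strand, occurred in 83.0% of all 188 collagen windows, 59.1 times as often per base as in all coding sequence.

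**Figure D3:**
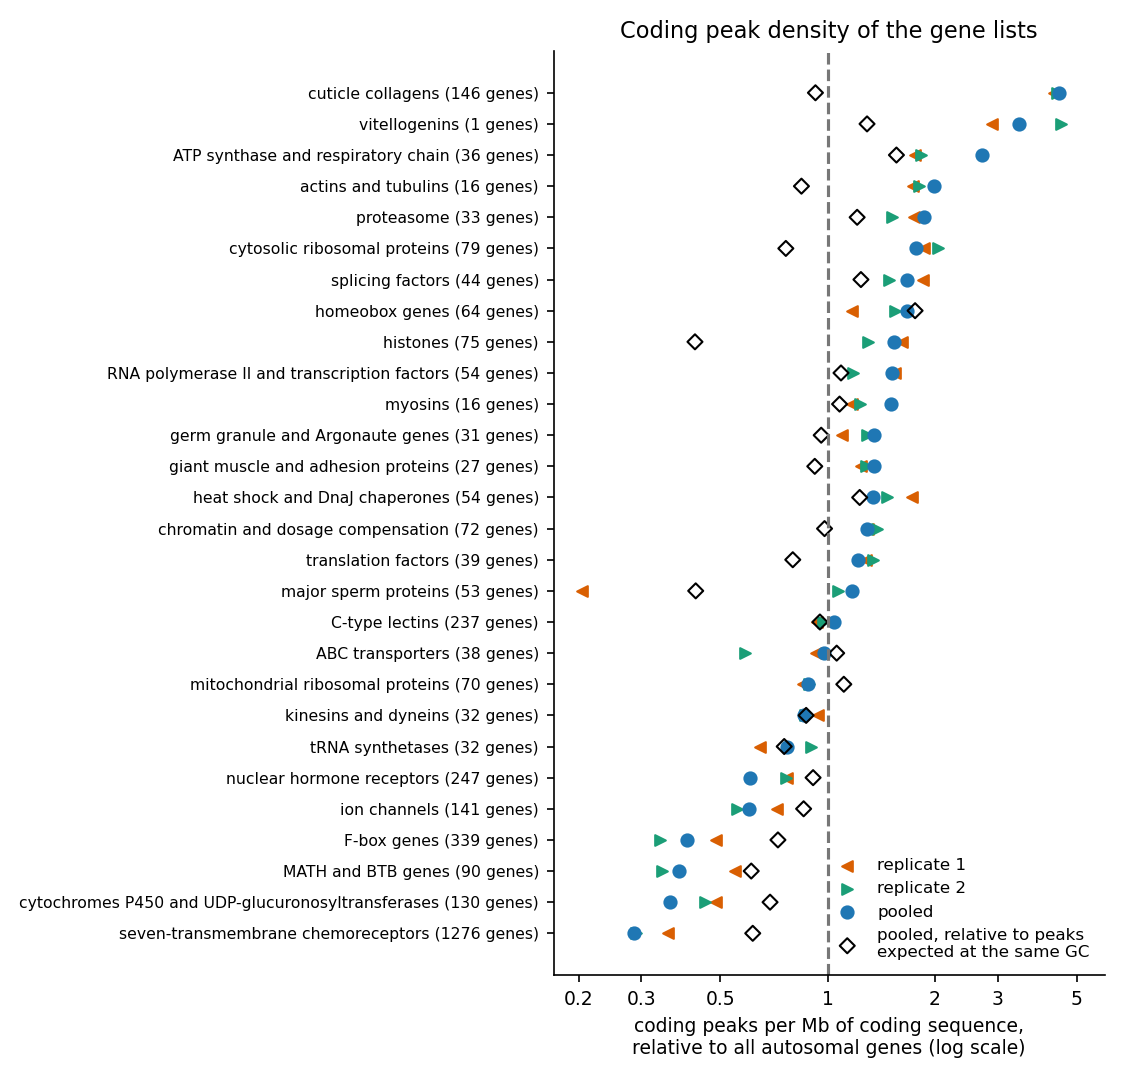
Coding peaks per Mb of coding sequence in 28 gene lists (rows, with the number of autosomal genes), relative to all autosomal protein-coding genes (x axis, log scale), in the pooled list and in each replicate list; open diamonds give the pooled count relative to the number expected from GC content. Cuticle collagens lie at 4.31 to 4.46 but at 0.924 against the GC expectation, and chemoreceptors lie at 0.285 to 0.356, with 0.616 against it.

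Density above that of all genes was found in several lists of housekeeping genes but not in all, given as counts with no test. Genes of tRNA synthetases were at 0.767 of the density of all genes (0.644 and 0.896 in replicates 1 and 2). Mitochondrial ribosomal protein genes were at 0.878 (0.851 and 0.888). ATP synthase and respiratory chain genes had 21 coding peaks in 15 of 36 genes (41.7%, beside 24.3% of all genes). This was 2.71 times the density of all genes in the pooled list but 1.76 and 1.83 times in replicates 1 and 2. The 21 peaks were weak, with a median signal of 26.8 against 31.6 over all coding peaks, and 4 were found in both replicates. Proteasome genes had 20 in 17 of 33 genes (51.5%), at 1.86 times, with 54.4 at pbs-3 and 52.9 at rpn-3. Cytosolic ribosomal protein genes had 20 in 16 of 79 genes, at 1.77 times by length, of which 3 were found in both replicates; by genes this is 20.25%, below the 24.3% of all genes. Splicing factor genes had 33 in 21 of 44 genes (47.7%), at 1.67 times, led by prp-3 with 72.3.

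Homeobox genes had 33 coding peaks in 26 of 64 genes (40.6%, beside 24.3% of all genes). This was 1.67 times the density of all genes in the pooled list, 1.17 in replicate 1 and 1.55 in replicate 2. Their median signal was 37.6, and they held 2 IDR peaks. One was in ceh-51, and the other, of 95.35, was in lim-8, which the list holds by its symbol and which encodes a LIM-domain protein of muscle. The posterior homeobox genes php-3 (72.2) and vab-7 (67.5) had the next strongest peaks. Actin and tubulin genes had 12 coding peaks in 7 of 16 genes (43.75%), with 62.4 at tbb-2. They were at 1.99 times the density of all genes (1.74 and 1.81 in replicates 1 and 2), but at 0.844 of the number expected from GC content. Myosin genes had 27 in 9 of 16 genes (56.25%), with 70.2 at hum-7. Of these 27 peaks 3 were found in both replicates. Their density was 1.51 times that of all genes (1.17 and 1.23 in replicates 1 and 2), and 1.08 times the number expected from GC content.

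Genes of chromatin and dosage compensation had 77 coding peaks in 36 of 72 genes, 1.29 times the density of all genes, with 76.3 at swsn-1, a subunit of the SWI/SNF remodelling complex. Genes of the dosage compensation complex, which SDC-2 recruits, were in this list. The histone demethylase gene dpy-21 had 4 coding peaks, 3 of them found in both replicates, the strongest with 53.9. The condensin subunit gene dpy-27 had 3 and sdc-3 had 2, while mix-1 and capg-1 had 1 each. In dpy-26, dpy-28 and dpy-30 there was none in the pooled list. Together the 8 genes had 11 coding peaks on 31.6 kb of coding sequence, where the density of all genes gives 9.26, so their number was near the background.

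Low density was found in several large families of receptors, channels, enzymes and adaptors. Of 1276 seven-transmembrane chemoreceptor genes 98 had a coding peak (7.68%, interval 6.28 to 9.28%), and the density was 0.285 of that of all genes, 0.356 in replicate 1 and 0.289 in replicate 2. The subfamilies differed. Of 54 sre genes 13 had a coding peak (24.1%, beside 24.3% of all genes), with 14 peaks, 0.831 of the density of all genes and 1.64 times the number that their GC content gives, which sums the density of all coding peaks at the GC of each base. The 61 sri genes had 11 peaks, 0.616 of the density of all genes and 0.929 of that number. The 188 str genes had 9 and the 109 srw genes 5, at 0.159 and 0.146 of the density and 0.354 and 0.35 of that number, while the 23 srab genes had 0, which the interval limits to 14.8% of genes. Genes of cytochromes P450 and UDP-glucuronosyltransferases were at 0.361, MATH and BTB genes at 0.383 and F-box genes at 0.402. Nuclear hormone receptor genes were at 0.605 and ion channel genes at 0.602. The strongest peaks in these lists were 67.8 at srw-85, 70.4 at acr-18 and 65.95 at cyp-37A1. None of the 280 coding peaks of these 6 lists was an IDR peak, where the 0.742% over all coding peaks gives 2.08, so the count of 0 sets them little apart.

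These differences between families followed the GC content of their coding sequence closely. Within 100 bp, summits of coding peaks had a median GC content of 46.3% (quartiles 40.8 to 51.2%), against 39.3% (35.8 to 43.8%) around all autosomal coding bases. Coding peaks found in both replicates had 49.75% and coding IDR peaks 57.0%. Noncoding peaks had 41.3%. Coding peaks per Mb rose in every step of GC, from 90.2 where it was under 35% through 245.0 at 40 to 45% and 582.0 at 45 to 50% to 2700 at 60% and over. The median signal rose with it from 27.2 to 48.7, and the share found in both replicates from 14.6 to 60.4%.

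At equal GC content collagens differed less from other coding sequence, and in no single direction. Between 50 and 55% GC they had 1480 peaks per Mb and other genes 1200, between 55 and 60% they had 2060 and others 2230, and at 60% and over 2260 and 3050. The density of coding peaks in each GC step of 2.5 points gives the number that a list would have at its own GC content. That number was fitted to the coding peaks themselves, those of the list included. Collagens held 76 of the 207 coding peaks at 60% GC and over, so their number expected is partly fixed by their own peaks. For collagens it was 204 against the 188 observed, a ratio of 0.924 where the density alone gave 4.46. For chemoreceptors it was 172 against 106, a ratio of 0.616 in place of 0.285, so here a deficit of coding peaks was seen at equal GC as well.

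**Figure D4:**
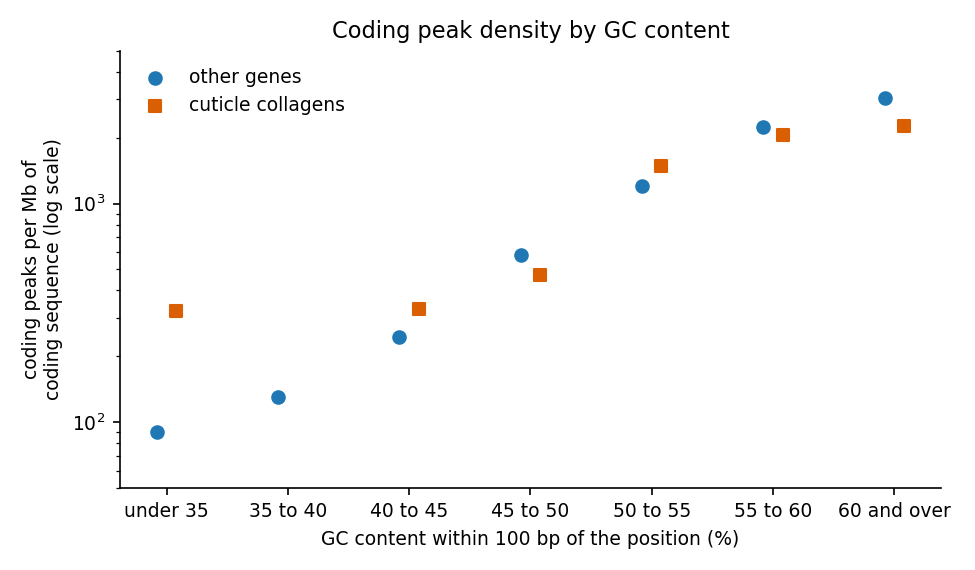
Coding peaks per Mb of autosomal coding sequence (y axis, log scale) by GC content within 100 bp of the position (x axis, percent), for cuticle collagens and for all other genes. Density rises from 89.8 to 3050 per Mb in other genes. In collagens it rises from 328 at 40 to 45% GC to 2260 at 60% and over. Collagens had 2 and 0 peaks in the 2 lowest steps (the 0 is not drawn).

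Set against the GC expectation, the other lists moved in different ways. Histone genes had 1.54 times the density of all genes but 0.424 of the number at their GC content, with 13 peaks where 30.6 were expected. Cytosolic ribosomal protein genes went from 1.77 to 0.763, and F-box genes from 0.402 to 0.725. Homeobox genes stayed high, 1.67 by density and 1.76 by GC, with 33 peaks against 18.8. ATP synthase and respiratory chain genes fell from 2.71 to 1.56 but stayed above the number expected (21 against 13.5). Across 78 classes of gene symbol with at least 20 autosomal genes, density and median GC had a Spearman correlation of 0.804. The classes share the libraries, and this is a description of them.

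Short motifs raised at coding summits were GC-rich. Outside collagens the hexamer most raised in coding windows was GCGGCG, in 4.49% of windows and 3.28 times as frequent per base as in all coding sequence, followed by GGCGGC at 3.18 times. The 8-mer AGACGCAG, its reverse complement CTGCGTCT included, was found in 43 coding windows (0.694%, interval 0.503 to 0.933%), where 0.405% of windows around all coding bases hold it. It was found in 1.3% of the 1000 strongest coding windows and in 1 of the 46 coding IDR windows (2.17%, interval 0.0550 to 11.5%). Among windows of noncoding autosomal peaks 5.48% held it. The 8-mer GAGAGAGA or its reverse complement was found in 46 coding windows (0.742%, interval 0.544 to 0.989%), beside 0.633% of windows around all coding bases. It was in 6.38% of the windows of noncoding autosomal peaks. Windows around all noncoding bases were not counted. Both 8-mers were chosen because they led earlier counts at noncoding autosomal IDR peaks of these data, so their higher share at noncoding peaks follows from the choice. These letters in a window are a description, not a binding site.

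Along the gene, coding summits were spread almost evenly. The coding sequence of the longest transcript was split into quintiles from its 5′ end, and these held 19.97, 18.8, 20.4, 20.6 and 20.2% of the 6198 summits. By exact binomial tests against 20%, adjusted over the quintiles, none passed (adjusted p = 0.975, 0.0900, 0.638, 0.638 and 0.806). In both replicate lists quintile 5 held less, 18.6% each (exact binomial adjusted p = 0.0314 and 0.025). Coding peaks found in both replicates had 23.5% in quintile 4 (interval 21.5 to 25.6%, exact binomial adjusted p = 0.00172). Collagens put 64 of their 188 summits there. Among the 1000 strongest coding peaks quintile 4 held 24.9%. Among the 1000 strongest outside collagens, a set that reaches to weaker peaks, it held 22.6%, which did not pass (exact binomial adjusted p = 0.109). Peaks found in both replicates were not tested without collagens.

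**Figure D5:**
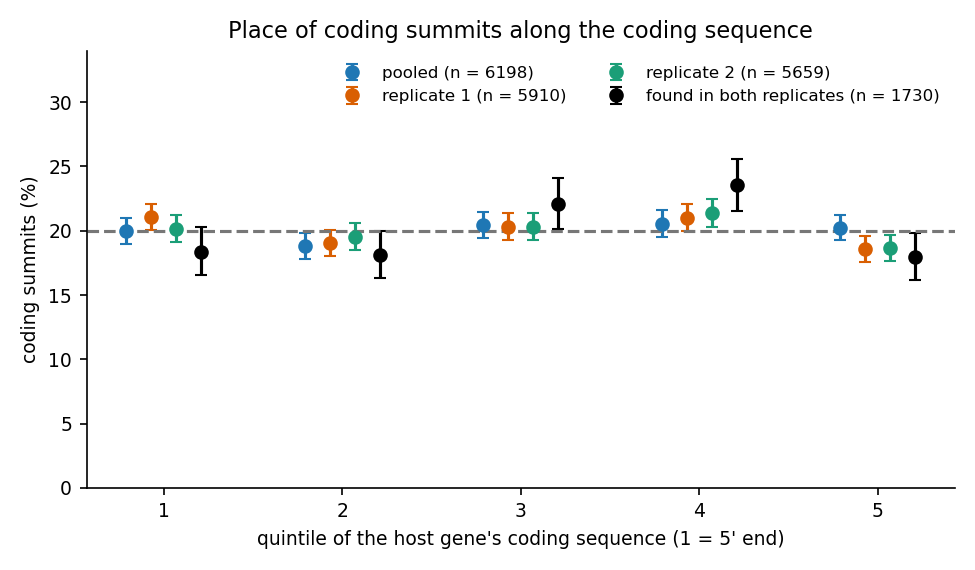
Share of coding summits (y axis, percent) in each quintile of the host's coding sequence (x axis, 5′ end on the left) in the pooled list, in each replicate list and among peaks found in both replicates, with exact 95% intervals; the dashed line is the 20% of bases that each quintile holds. All pooled shares lie between 18.8 and 20.6%, and quintile 4 of peaks found in both lies at 23.5%.

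Coding summits were no closer to gene starts than coding bases are. No more than 1000 bp away from a protein-coding gene start lay 3080 coding summits, 49.7%, and 49.95% of coding bases lie that close. First coding segments held 12.6% of summits on 11.1% of bases, inner segments 67.97% on 72.25% and last segments 17.9% on 15.65%. Long segments held more: the segment around a summit had a median length of 344 bases, against 261 around the average coding base. Segments of 100 to 150 bases had 192.1 peaks per Mb and those of 500 to 1000 bases 421.9, and the ratio to the number at their GC content was 1.08 and 1.01. Segments of up to 100 bases had 223.8 per Mb and 1.66 times the number at their GC content.

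Peaks near the edge of coding sequence were weaker than those deep inside it. For 2078 coding peaks noncoding bases lay within 50 bp of the summit, with a median signal of 29.8, and 20.9% of them were found in both replicates. Just outside, 1579 noncoding peaks had a coding base within 50 bp, and had a median of 29.8 and a share of 21.8%. The 4120 coding peaks with only coding bases within 50 bp had a median of 33.2, and 31.4% were found in both. Of the 46 coding IDR peaks 39 were of this last kind.

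The density of coding peaks also differed along the chromosomes. It was 340.5 per Mb of coding sequence on I, 327.8 on II, 335.5 on III, 273.3 on IV and 220.6 on V. Each autosome was split into 3 equal lengths, and density was higher in the outer ones: the middle had 223.7 and the outer lengths 420.3 on I, and the values were 184.0 and 418.8 on II, 226.5 and 415.8 on III, 194.9 and 332.2 on IV, and 159.1 and 258.5 on V. Over all autosomes this was 194.9 against 359.2 per Mb, with 202.3 and 331.4 in replicate 1 and 178.1 and 327.8 in replicate 2. Noncoding peaks differed far less, with 224.1 per Mb of noncoding sequence in the middle and 246.9 toward the ends. GC content around coding summits was 42.8% in the middle and 47.3% toward the ends, and relative to the number at their GC content the coding peaks were at 0.912 and 1.04.

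Few coding peaks had summit bases that recur exactly elsewhere in the genome, and repeats of other kinds were not counted. The 31 bases at the summit were found more than once in the genome for 85 coding peaks (1.37%, interval 1.097 to 1.69%) and for 636 noncoding peaks (4.32%). Among collagen peaks this was 6 of 188 and among coding IDR peaks 1 of 46, the one in his-32. Annotated snoRNA genes lay at 5 coding summits, genes of the annotation's ncRNA class at 25, and tRNA genes at 0. The share of coding bases inside such genes was not counted, so these counts have no background.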

How the data were processed

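SDC-2 ChIP-seq peak lists of 2 biological replicates of 1 group were used. Per the deposited README texts, peaks and background were called on each replicate and on both pooled, each against the same control alignment. The signal of a peak is a deposited value of the authors' peak caller; it ranks and describes peaks within a list, and lists are not on one scale. The aligner, the program that called peaks and the IDR cutoff were not given in the sources used here, and −log10 q-values were left unused. The lists give no counts, so depth is unknown.

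The ce11 lists were set against the RefSeq genome and the Ensembl release 115 annotation of WBcel235, whose chromosome lengths match. A summit was coding if any protein-coding transcript has a CDS base there, else untranslated, intronic or intergenic. Place along the gene used the longest coding transcript that holds the summit. Replicate peaks were matched by summits within 100 bp. Density is coding peaks per Mb of merged coding sequence. GC content and 8-mers were read in 201 bases around the summit, hexamers on the strand of the host. Numbers expected from GC content sum, over coding bases, the density of coding peaks in bins of 2.5 percentage points. Shares were tested with exact two-sided binomial and Fisher exact tests, quintiles of the coding sequence with Benjamini-Hochberg adjustment, and recovery within deciles of signal with a Cochran-Mantel-Haenszel test. The tests count peaks of 2 libraries, and the spread between worms is not in their p-values. Gene lists were described by counts, with no test.

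Named genes were the hosts of the 15 strongest coding peaks, the 10 hosts with most coding peaks, the 10 densest hosts with at least 3, up to 4 genes per gene list with the strongest coding peak, and hosts of IDR peaks. Members of the dosage compensation complex and the hosts of printed sequences (4 collagens and 4 others among the 15 strongest) were picked after their values were seen. The peaks and gene lists were chosen with earlier results of these data known. Numbers expected from GC content, copies of summit sequence, edges of coding sequence, the 3 lengths of each chromosome summed over autosomes and quintiles without collagens were added after results were seen. Simulated data were used to check the tests. Python 3.11.15, numpy 2.4.6, pandas 2.3.3, scipy 1.17.1 and matplotlib 3.10.9 were used.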

Additional observations from a re-analysis of the deposited data

How the results depend on the processing

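With single replicate lists, the middle of the peak, the CDS of the longest transcript, or gene starts left out, the coding share of autosomal peaks kept its direction and its side of the threshold, between 27.98 and 29.9%; in the IDR list it was 5.90%. The difference in recovery kept its sign with summits within 50 or 200 bp, an overlap of 50% of the peak, single replicates or the middle of the peak, but was 0.760 percentage points in the other direction within deciles of signal. The lower IDR share of coding peaks kept its direction under every alternative run, with −3.28 to −4.25 percentage points. In the pooled list IDR membership of coding peaks followed a cut on signal, so this share restates the upper end of the signal.

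The quintiles of the coding sequence moved most. In single replicate lists quintile 1 held 20.1 to 21.05%, quintile 4 held 21 to 21.4% and quintile 5 held 18.58 to 18.63% of summits. Among the 1000 strongest coding peaks quintile 1 held 17%, quintile 3 held 24%, quintile 4 held 24.9% and quintile 5 held 16.2%. Without collagens, an alternative chosen after seeing the data, quintile 1 held 20.5% of all other summits. Quintile 5 held 17.4% of the 1000 strongest outside collagens. In hosts of at least 1500 coding bases quintile 3 held 19.4% and quintile 5 held 22.1%. Quintile 5 thus has no stable direction across these alternatives; the cause was not tested.

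Counting peaks found in both replicates only left 1449 host genes of 4190. The median GC content of coding summits was 47.5% over 50 bp to either side and 45.3 to 45.8% in single replicate lists. Of 59 alternatives of these results, 40 kept direction and call. Another 10 reversed direction, 5 gave a stronger difference, and 4, of values that had no test, moved. Lists on the older build were not used, for want of its annotation. No paired analysis was possible because there is 1 group. With depth unknown, the absence of a coding peak in a gene says only that none was listed.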

Other observations

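Sorted by gene symbol, 78 classes had at least 20 autosomal genes. After col, the class of highest coding peak density was grl, the ground-like genes of the hedgehog-related family. It had 24 coding peaks in 16 of 30 genes (53.3%, beside 24.3% of all genes). That is 3.46 times the density of all autosomal genes in the pooled list, 2.87 times in replicate 1 and 2.21 times in replicate 2, and 6 of the 24 were found in both replicates. Relative to the number at their GC content the ratio was 1.5, where 16 were expected. Insulin-like peptide genes (ins) had 7 coding peaks in 6 of 36 genes (16.7%, below the 24.3% of all genes). By length this was 2.16 times the density of all genes and 1.92 times the number at their GC content. Of the 7, 4 were found in both. The pqn genes, which encode proteins rich in glutamine and asparagine, had 48 coding peaks in 23 of 48 genes (47.9%). Their density was 2.06 times that of all genes, with IDR peaks in pqn-41 (88.98) and pqn-87 (83.8). The daf genes, many of which act in dauer formation, had 30 in 14 of 22 genes (63.6%), of which 12 were found in both. This was 2.02 times the density of all genes and 1.67 times the number at their GC content.

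At the other end, transthyretin-like genes (ttr) had 0 coding peaks in 46 genes, where 3.41 were expected from GC content, with 0 in replicate 1 and 2 genes in replicate 2. Major sperm protein genes of the msp class had 1 where 9.11 were expected, and histone genes of the his class 9 where 27.3 were. Both are families of near-identical copies, so counts in them are uncertain. These classes were chosen after their values were seen, they were not tested, and several rest on few peaks.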
